A study of Mus musculus with 6 samples.

Results

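The genes described here drive entry into the cell cycle, DNA replication and cell division, and were measured in luminal uterine epithelium of control mice and of mice with a conditional knockout (cKO) of the BMP receptor Alk3 (Bmpr1a). The set held 42 of the 28891 genes on the array, found by symbol or synonym in the deposited probe annotation and grouped by phase into 19 genes of G1 entry and origin licensing (G1/S), 8 of S phase and 15 of G2 and mitosis (G2/M). They were covered by 91 of 45281 probes. The groups were 3 Control samples (A, B and C) and 3 Alk3 cKO samples (D, E and F, here CKO), each on its own array of 1 Illumina chip, all from 3.5 days post coitum. CKO females were Alk3flox/flox Pgrcre/+, with loxP sites around exon 2, which codes for part of the receptor's extracellular domain. Both groups had a hybrid background of C57BL/6J and 129S5/SvEvBrd. For Control the labels give no alleles, and for neither group an age. Cre came from the progesterone receptor locus, which is active in uterine epithelium and also in stroma and muscle, so in such mice the deletion is not limited to the epithelium. How the epithelium was separated from the rest of the uterus, and whether each array held a separate animal, is not in the labels, so the p-values measure only the spread between these samples, which may be technical. Control lay at chip positions A to C and CKO at D to F, and the effects of position and group cannot be told apart.

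Cells enter the cycle when D-type cyclins, with Cdk4 or Cdk6, phosphorylate the retinoblastoma protein Rb1 and release E2F factors. In G1, Cdc6 and Cdt1 load the ring-shaped MCM helicase onto replication origins, and Cdc45 and the GINS complex turn it on in S phase, when nucleotide synthesis and the sliding clamp Pcna support the forks. Cdk1 with B-type cyclins then drives mitosis, in which Aurora and Polo kinases build the spindle, Bub proteins guard its attachment, and Cdc20 starts the breakdown of securin and cyclin B. In early pregnancy the luminal epithelium of the mouse uterus first proliferates under estrogen and then leaves the cycle as progesterone rises and the uterus becomes receptive to the embryo. The comparison asks whether these genes differ in the epithelium of Alk3 cKO mice at that time.

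The arrays were alike in depth of signal. The median raw intensity ran from 79.7 to 87.6, the share of genes above background (detection p-value under 0.05) from 39.9% on array A to 42.0% on array B, and the mean correlation with the other arrays from 0.936 on array E to 0.970 on array B. The epithelial label was borne out by 7 of 8 pan-epithelial markers tested, with a summed normalised signal of 26080 to 31127 in Control and 25357 to 29698 in CKO, although Epcam was below background on every array. Of 6 luminal markers 5 were tested, with a summed signal of 21840 to 27587 in Control and 19812 to 21467 in CKO. Of the stroma markers 9 of 14 were tested. Their summed signal was 2169 to 3006 in Control and 1012 to 6917 in CKO. Dcn, Col6a1, Lum, Vim, Thy1 and Nr2f2 were above background on all 6 arrays, while Hoxa10, Hoxa11 and Hand2 were below it throughout. Dcn gave a log2 signal of 10.73 to 11.20 in Control and 9.50 to 12.36 in CKO. Of the lymphocyte markers 2 of 5 were tested, Klrd1 and Nkg7, with a summed signal of 57.8 to 175 in Control and 62.3 to 110 in CKO, and Cd3e was below background on every array. Of the neutrophil markers Csf3r was tested, above background on 3 arrays, and S100a8 and S100a9 were never above it. Erythroid markers (3 of 4 tested) had a summed signal of 2228 to 9284 in Control and 3034 to 13969 in CKO. Macrophage and dendritic markers (4 of 6 tested, Itgax below background throughout) summed to 400 to 717 in Control and 470 to 1120 in CKO. Of 6 oocyte and embryo markers Pou5f1 and Khdc3 were tested, with a summed signal of 33.7 to 54.1 in Control and 41.9 to 68.2 in CKO, and Nanog, Cdx2, Zp3 and Dppa3 were below background throughout. The targeted gene gave a normalised log2 signal of 9.26, 9.34 and 8.97 in Control and 8.86, 8.25 and 8.67 in CKO at the brighter of its 2 Bmpr1a probes. That is a difference of -0.60 (SE 0.22) without overlap of the groups, but the limma adjusted p was 0.976. The dimmer probe gave 6.60, 7.10 and 7.02 in Control and 5.60, 6.88 and 6.70 in CKO. There the difference was -0.51 and the groups overlapped, with array D the lowest. The position of these probes relative to the deleted exon was not determined, and a probe outside it would check nothing. In bulk RNA of this kind fewer cycling cells and less of a transcript per cell cannot be told apart.

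The clearest contrast within the set was between phases in how many genes could be seen at all. Of the 42 genes, 19 had a probe above background on all 6 arrays, 14 on 1 to 5 arrays and 9 on none. By phase these were 13 of 19 G1/S genes, 4 of 8 S phase genes and 2 of 15 G2/M genes, Top2a and Aurka. The 9 never above background were the kinase Cdk6, the E-type cyclins Ccne1 and Ccne2, the ribonucleotide reductase subunit Rrm2, the cyclins Ccna2 and Ccnb2, the checkpoint kinase Bub1, the spindle motor Kif11 and the ubiquitin-conjugating enzyme Ube2c. A probe below background gives no evidence that the gene was silent.

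The number of G2/M genes above background differed between arrays more than that of the other phases. Out of 15 it was 3, 10 and 10 on Control arrays A, B and C and 5, 7 and 7 on CKO arrays D, E and F. Control thus held both the lowest and the highest counts, and CKO lay between them. For G1/S genes the count was 14 or 15 of 19 on each array and for S phase genes 5 or 6 of 8. Ccnb1, the main mitotic cyclin, Aurkb, the kinase of the chromosomal passenger complex, and Mki67, which codes for the proliferation antigen Ki-67, were above background on Control arrays B and C only. Kif20a, a motor of cytokinesis, was seen on array B only, and the transcription factor Myc on array E only. Array A also had the lowest share of all genes above background and B the highest, at the 39.9% and 42.0% given above. Array C, with 10 G2/M genes like B, had a share of 40.1%, close to that of A. On CKO arrays D, E and F the share was 41.9%, 41.0% and 41.7%. A link between this share and the G2/M count was not tested.

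**Figure D1:**
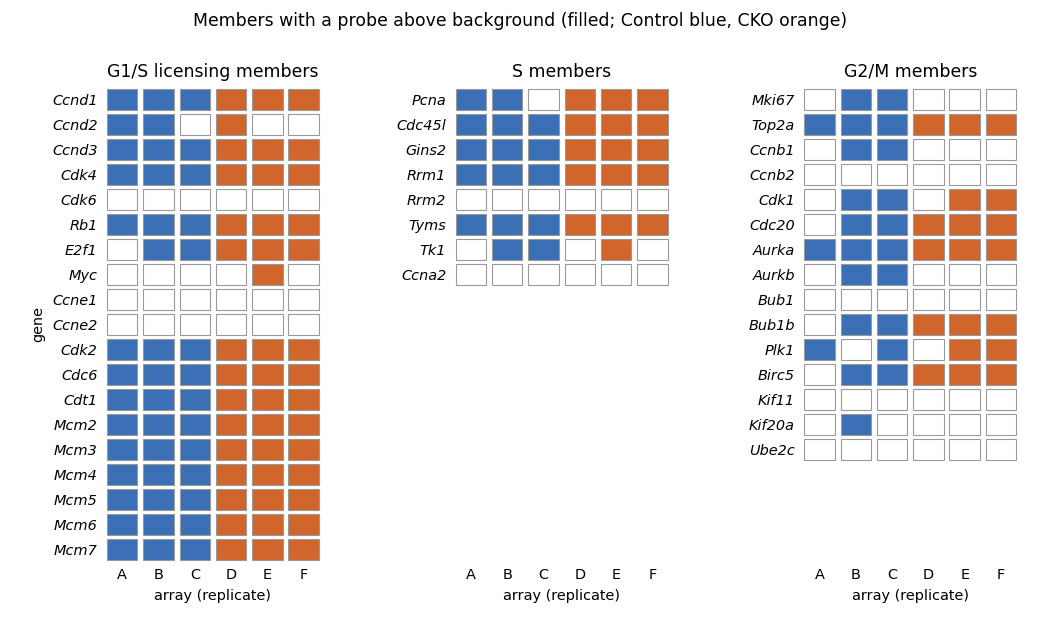
Detection of the 42 genes on the 6 arrays, 1 panel per phase, with a gene on each row and an array on each column. A filled square marks at least 1 probe above background (blue Control, orange CKO). The G2/M panel is filled most on Control arrays B and C, with 10 genes each, and least on Control array A, with 3.

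No gene of the set passed the test between CKO and Control. Of the 42, 28 were above background on at least 3 arrays at 1 probe and were tested: 15 of 19 G1/S, 6 of 8 S and 7 of 15 G2/M genes. With limma and Benjamini-Hochberg adjustment over 11940 genes, 0 of the 28 were called higher and 0 lower. Over all genes 2 were called higher in CKO, Cops8 and Gin1, which is 0.0168%, and 0 lower, which is 0%. Adjusted p-values of the 28 ran from 0.976 to 0.989. At an unadjusted p under 0.05 stood 1 of the 28, Mcm2, against 4.72% of all genes. The groups did not overlap for 2 genes that were higher, Mcm2 and Mcm3, and 1 that was lower, Cdc6, against 5.64% and 5.01% of all genes. That is a share of 3 in 28, close to the 10.6% of all genes. The median difference (CKO minus Control, log2) was 0.05 over the 28 genes and -0.01 over all genes. By phase it was 0.14 for G1/S (11 higher, 4 lower), -0.06 for S (3 and 3) and -0.30 for G2/M (1 and 6).

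**Figure D2:**
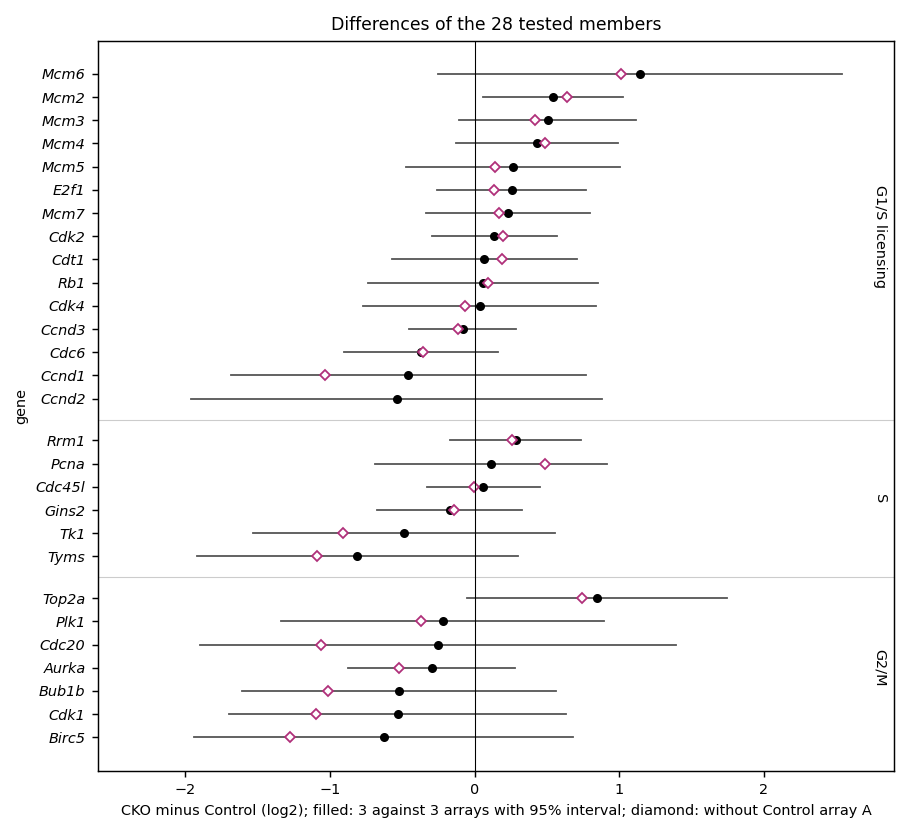
Difference between CKO and Control for the 28 tested genes by phase, on the log2 scale. Filled points are means of 3 arrays minus means of 3 arrays with the 95% confidence interval of the limma fit, and diamonds are the differences without Control array A. Only the interval of Mcm2 lies wholly on 1 side of 0, and the diamonds of most G2/M genes lie well to the left of their filled points.

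The subunits of the MCM helicase all had positive differences. For the 6 subunits measured, Mcm2 to Mcm7, the median was 0.47, and 0 of the 6 passed the adjusted test. Mcm2 had a normalised log2 signal of 8.01, 7.92 and 7.53 in Control and 8.46, 8.49 and 8.14 in CKO. All 3 CKO arrays lay above all 3 Control arrays, at means of 7.82 ± 0.25 (SD, n = 3) and 8.37 ± 0.19 (SD, n = 3). The difference was 0.54 (SE 0.20, 95% confidence interval 0.06 to 1.03), with an unadjusted limma p of 0.0333 and an adjusted p of 0.976. Mcm3 gave 5.39, 5.66 and 5.62 in Control and 5.74, 6.57 and 5.88 in CKO, a difference of 0.50 (SE 0.26). Here too the groups did not overlap, though CKO array D was only slightly above Control array B.

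Mcm6 had the largest difference of the set, and it came from CKO arrays E and F. Its brightest probe gave 5.57, 6.29 and 5.61 in Control and 5.60, 7.82 and 7.48 in CKO, or raw intensities of 114, 148 and 108 against 103, 292 and 226. Array D lay within the Control range, so the groups overlapped. The difference was 1.14 (SE 0.58, interval -0.25 to 2.54). A probe of Mcm6 above background on 4 arrays differed by 1.10. Another was above background only on E and F, at 7.70 and 7.32, and read 4.41 to 4.64 elsewhere. The last Mcm6 probe was below background on all arrays. The 3 probes that detected the transcript thus all read highest on E and next highest on F.

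Mcm4 gave 10.05, 10.15 and 9.56 in Control and 10.32, 10.63 and 10.10 in CKO, a difference of 0.43 (SE 0.23). Mcm5 gave 7.08, 7.77 and 7.13 in Control and 7.22, 8.12 and 7.43 in CKO, a difference of 0.26 (SE 0.31). Mcm7 gave 6.88, 7.14 and 7.03 in Control and 6.93, 7.70 and 7.11 in CKO, a difference of 0.23 (SE 0.24), while its other tested probe differed by -0.13. In these 3 genes the groups overlapped, and array E was the highest. It was in fact the highest array for 6 of 6 subunits, as it was for 22.4% of all genes tested. The mean deviation of the 6 subunits from their own average was 0.72 on E and 0.19 on F, but -0.13 on D, -0.34 on A, -0.02 on B and -0.42 on C. Without array E the differences of Mcm5 and Mcm7 were 0.00063 and 0.0048, and those of Mcm2 and Mcm6 were 0.48 and 0.73. On array E endothelial markers (4 of 6 tested, Tie1 below background throughout) summed to 518, against 66.5 to 103 in Control and 58.8 and 149 on the other CKO arrays, and Tek, Emcn and Cdh5 were highest there while Kdr was not. Gland markers (4 of 6 tested) summed to 4331 on E, against 392 and 455 on the other CKO arrays and 415 to 4721 in Control, where array A was higher. Their part in the MCM values was not tested.

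**Figure D3:**
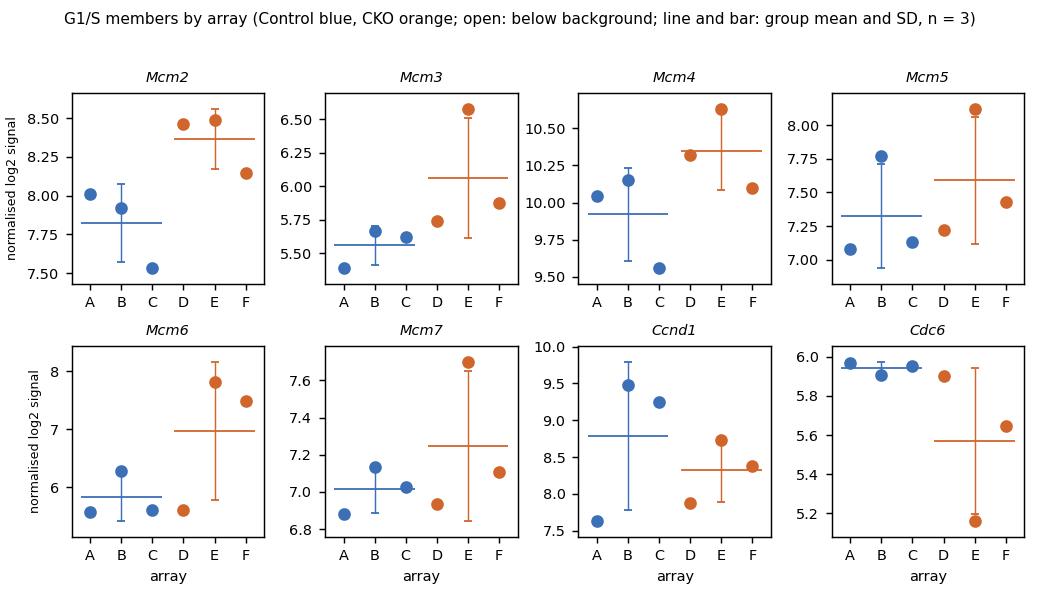
Normalised log2 signal of the 6 MCM subunits, Ccnd1 and Cdc6 on each array, with blue Control and orange CKO points and a line and bar for each group's mean and SD (n = 3). Axes differ between panels. Array E is the highest point in all 6 MCM panels, and only in the Mcm2, Mcm3 and Cdc6 panels do the groups not overlap.

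The promoters of MCM genes are known to carry E2F sites, through which E2F factors drive the G1/S genes as a group. RefSeq promoters (GRCm38.p6, from 250 bases before to 50 after the transcript start) were matched for 32 of the 42 genes, 34 promoters in all. Promoters on 1 chromosome were left out for the genes of the set but kept among all promoters. An E2F motif (TTTCCCGC, TTTGGCGC, TTTCGCGC or TTTGCCGC, on either strand, overlaps counted) was found in 7 of 15 G1/S promoters, in 0 of 6 S promoters and in 1 of 13 G2/M promoters, against 2.26% of all 32851 promoters. The 250 bases before the start are shown for Mcm6, the gene with the largest difference, at chr1:128359706-128359955 on the minus strand, and for Mcm5, one of the smallest among the subunits, at chr8:75109259-75109508 on the plus strand. Both run 5′ to 3′ in the gene's direction, and capitals mark E2F motifs and CCAAT boxes (CCAAT or its complement ATTGG). Where 2 E2F motifs on opposite strands overlap, the capitals run together.
Mcm6: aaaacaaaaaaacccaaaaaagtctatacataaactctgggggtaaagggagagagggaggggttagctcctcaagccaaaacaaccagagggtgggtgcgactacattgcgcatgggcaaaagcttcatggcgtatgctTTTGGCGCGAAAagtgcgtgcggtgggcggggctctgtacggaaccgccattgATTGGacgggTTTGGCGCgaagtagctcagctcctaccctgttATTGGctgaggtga
Mcm5: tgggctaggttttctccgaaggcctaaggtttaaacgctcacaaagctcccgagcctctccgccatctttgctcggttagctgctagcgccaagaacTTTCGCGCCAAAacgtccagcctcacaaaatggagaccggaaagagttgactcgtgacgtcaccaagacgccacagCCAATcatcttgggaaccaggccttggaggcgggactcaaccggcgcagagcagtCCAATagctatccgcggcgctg
Mcm6 has 3 E2F matches in this stretch, an overlapping pair and a single one nearer the start, and Mcm5 has 2, an overlapping pair. Each also has 2 CCAAT boxes. Over the full window Mcm3 had 2 E2F matches and Mcm2 had 0, and the Mcm7 promoters had 0 and 2. The match is one of letters and does not show that a factor binds there.

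Of the loading factors, Cdc6 had a negative difference and Cdt1 one near 0. Cdc6 gave 5.97, 5.91 and 5.95 in Control and 5.90, 5.16 and 5.65 in CKO, a difference of -0.37 (SE 0.22). The highest CKO array, D, was only just lower than the lowest Control array, B, so the groups did not overlap. Cdt1 gave 7.98, 7.94 and 7.31 in Control and 7.89, 8.10 and 7.44 in CKO, a difference of 0.07 (SE 0.27), within its error of 0, with overlapping groups. Array E was its highest, as for the MCM subunits. The differences of Mcm5 and Mcm7 were also within their error of 0.

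Among the regulators of G1 entry, differences were small or came with a wide spread. Ccnd1, the cyclin that growth signals induce, gave 7.64, 9.48 and 9.25 in Control and 7.87, 8.74 and 8.38 in CKO. Control array A was the lowest of all 6 arrays and B and C the highest, at a Control mean of 8.79 ± 1.0 (SD, n = 3) and a CKO mean of 8.33 ± 0.44 (SD, n = 3). The difference was -0.46 (SE 0.51), all 3 Ccnd1 probes had the same sign, and without array A it was -1.03. Ccnd2 was above background on 3 arrays and gave 6.56, 5.79 and 4.82 in Control and 6.26, 4.56 and 4.74 in CKO, a difference of -0.54 (SE 0.59). Ccnd3 lay between 10.28 and 10.56 on all arrays, with a difference of -0.08 (SE 0.15). The 3 D-type cyclins thus differed in how much they varied between arrays, with Ccnd3 the steadiest.

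Cdk4, the partner kinase of these cyclins, gave 9.88, 10.00 and 10.38 in Control and 9.42, 10.62 and 10.33 in CKO, a difference of 0.03 (SE 0.34). Cdk2, which acts with E- and A-type cyclins, lay between 10.21 and 10.68, with a difference of 0.14 (SE 0.18). Their groups overlapped, and in each gene the tested probes did not all have the same sign. The retinoblastoma gene Rb1 gave 9.83, 10.07 and 9.38 in Control and 10.25, 9.17 and 10.03 in CKO, a difference of 0.06 (SE 0.33), with 0.63 at its other probe. E2f1 gave 5.08, 5.56 and 5.34 in Control and 5.81, 5.66 and 5.29 in CKO, a difference of 0.26 (SE 0.22), with array A below background. Myc read 6.10 on CKO array E and 4.50 to 4.75 on the 5 arrays where it was below background. CKO arrays D and F were among these, so no lower bound on the group difference could be set.

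The S phase genes showed no common direction. Tyms, which makes thymidylate, had the largest difference among them: 10.63, 11.06 and 11.87 in Control and 10.27, 9.68 and 11.18 in CKO, or -0.81 (SE 0.46, interval -1.92 to 0.30). Array F lay above 2 of the 3 Control arrays. The 5 Tyms probes differed by -1.23 to 0.10, with 4 lower and 1 higher, and without array E the brightest gave -0.46. Tk1, the thymidine kinase of the salvage pathway, was above background on arrays B, C and E. It gave 4.72, 6.03 and 5.97 in Control and 4.72, 5.71 and 4.83 in CKO, a difference of -0.49 (SE 0.44). Arrays B and C were its highest, and without array A the difference was -0.91.

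Pcna gave 6.29, 5.25 and 5.08 in Control and 5.76, 5.73 and 5.47 in CKO, a difference of 0.12 (SE 0.33). Array A was the highest for Pcna, while for Tk1 it was at the low end. Cdc45l (now Cdc45), which joins the helicase at firing origins, lay between 5.19 and 5.47 with a difference of 0.06 (SE 0.16). Gins2, a GINS subunit, gave 6.59, 6.42 and 6.55 in Control and 5.97, 6.57 and 6.50 in CKO, a difference of -0.17 (SE 0.21), and array D alone was low. Rrm1, the large ribonucleotide reductase subunit, gave 7.70, 8.03 and 7.51 in Control and 8.12, 8.01 and 7.95 in CKO, a difference of 0.28 (SE 0.19). Groups overlapped for all 6 S phase genes.

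Most of the tested mitotic genes shared a pattern that did not follow the groups: Control arrays B and C were high, Control array A was low, and the CKO arrays lay in between. Among the G1/S and S phase genes, Ccnd1 and Tk1 also had B and C above all other arrays. Cdc20, the activator of the anaphase-promoting complex, gave 5.05, 7.22 and 7.76 in Control and 5.97, 6.81 and 6.49 in CKO, with raw intensities of 96.7, 226 and 272 against 115, 179 and 143. The 3 CKO values lay between array A and array B. The means were 6.68 ± 1.44 (SD, n = 3) and 6.43 ± 0.43 (SD, n = 3), a difference of -0.25 (SE 0.69, interval -1.90 to 1.39). Birc5, the survivin of the chromosomal passenger complex, gave 5.13, 6.98 and 7.22 in Control and 5.50, 5.99 and 5.95 in CKO, a difference of -0.63 (SE 0.55). All 3 tested Birc5 probes were highest on C and next on B. Cdk1 gave 4.53, 5.98 and 6.50 in Control and 4.95, 5.31 and 5.15 in CKO, a difference of -0.53 (SE 0.49), with A and D below background.

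Bub1b, the checkpoint protein BubR1, gave 5.13, 6.43 and 6.82 in Control and 6.03, 5.46 and 5.33 in CKO, a difference of -0.52 (SE 0.45). Aurka, the kinase of the spindle poles, gave 6.32, 6.86 and 7.16 in Control and 6.54, 6.38 and 6.54 in CKO, a difference of -0.30 (SE 0.24). In both genes B and C again lay above all other arrays and A below them. Plk1, the Polo kinase, gave 5.25, 4.93 and 6.46 in Control and 4.68, 5.53 and 5.77 in CKO, a difference of -0.22 (SE 0.47). It shared the high value on C but not on B, where it was below background.

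Top2a, the topoisomerase that untangles sister chromatids, went against the others. It gave 8.51, 9.52 and 8.11 in Control and 9.26, 9.75 and 9.66 in CKO, at means of 8.71 ± 0.73 (SD, n = 3) and 9.56 ± 0.26 (SD, n = 3). Array C, the highest for the other 6 tested G2/M genes, was the lowest for Top2a, and array B lay inside the CKO range. The difference was 0.84 (SE 0.37, interval -0.05 to 1.74), with 0.61 at a dimmer Top2a probe that was above background only on D and F. This is the largest positive difference of the set after Mcm6, and the limma adjusted p was 0.976. For the other 6 tested G2/M genes the difference was negative in 6 of 6, with a median of -0.41, and 0 passed the test.

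Of the 8 G2/M genes too dim to test, 3 had the same pattern. These are the 3 that were above background on B and C only, so the pattern follows from how they were picked. Ccnb2, Bub1, Kif11, Kif20a and Ube2c, also too dim, did not show it. Ccnb1 gave 4.41, 5.89 and 6.74 in Control and 4.50, 4.69 and 4.81 in CKO, with raw intensities of 71.7, 128 and 165 against 73.4, 82.0 and 83.0. Only B and C were above background, 2 of the 3 Control arrays. With array A below it there was no test, and no lower bound on the group difference could be set. Aurkb gave 4.51, 5.65 and 6.00 in Control and 4.83, 4.66 and 4.89 in CKO. Mki67 read 5.08 and 5.46 on B and C and 4.50 to 4.94 on the other arrays. For all 3 genes Control array A was below background, like the CKO arrays.

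**Figure D4:**
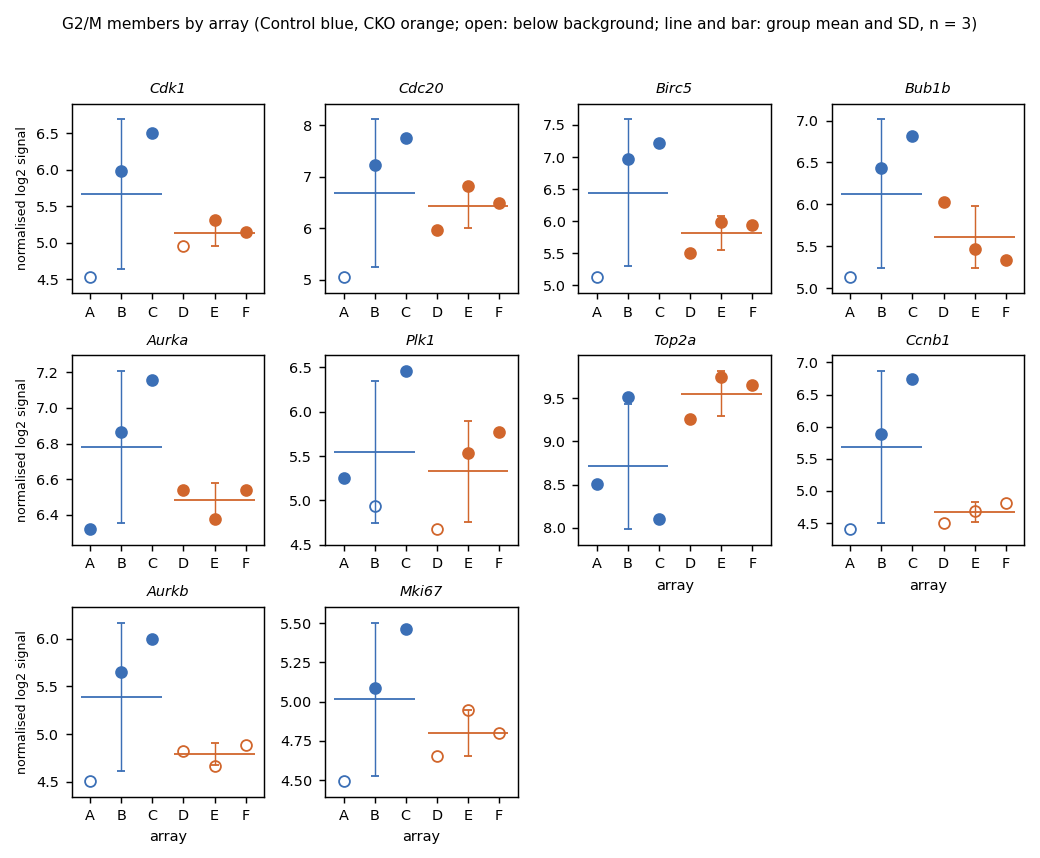
Normalised log2 signal of the 7 tested G2/M genes and of Ccnb1, Aurkb and Mki67 on each array. Blue points are Control and orange CKO, open points are below background, and the line and bar give each group's mean and SD (n = 3). Axes differ between panels. Arrays B and C stand above the other 4 in 5 of the 7 tested genes, all but Plk1 and Top2a. Ccnb1, Aurkb and Mki67 are shown because they were above background on B and C only, so their panels follow from that choice.

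Control samples were thus more unlike each other than CKO samples in the 7 tested G2/M genes. The Control SD was above the CKO SD in 7 of 7 tested G2/M genes, with a median SD of 0.89 against 0.27, while over all genes it was above in 33.6%, with medians of 0.22 and 0.31. For G1/S genes the Control SD was above in 5 of 15 and for S phase genes in 4 of 6. Arrays B and C lay above the other 4 in 5 of 7 tested G2/M genes, against 8.18% of all genes. Both measures were chosen after the values had been seen, and the genes share their arrays, so they are descriptions with no test. The mean deviation of the 7 G2/M genes from their own average was -0.75, 0.40 and 0.70 on A, B and C and -0.32, 0.01 and -0.04 on D, E and F.

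The size of the difference in mitotic genes therefore depended on array A. Without it the median difference of the 7 G2/M genes was -1.01 in place of -0.30. Birc5 then differed by -1.27, Cdk1 by -1.09, Cdc20 by -1.06, Bub1b by -1.01 and Aurka by -0.52. None was called, and the smallest limma adjusted p among the genes of the set was then 0.928. Without array C the median was -0.11. Array A also had the highest summed signal of smooth muscle markers (2 of 5 tested, with Myh11, Cnn1 and Tagln below background throughout), 2034 against 123 to 813 on the other arrays. That sum was nearly all Acta2, at a log2 signal of 10.98 on A, while Des was 5.57 on A and 5.11 to 6.03 elsewhere. Gland markers summed to 4721 on A against 392 to 4331, mostly from Spink1 (12.08 on A), while Cxcl15 was higher on B and Ttr was lowest on A. The part of such cells in the low mitotic values on A was not tested.

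Most G2/M promoters matched here carry the letters of the CHR, an element known to hold such genes silent outside G2 and mitosis, and of a CCAAT box. A CHR motif (TTTGAA or TTCGAA, on either strand) was found in 11 of 13 G2/M promoters, 2 of 15 G1/S and 1 of 6 S promoters, against 19.2% of all promoters. A CCAAT box (CCAAT, on either strand) was found in 12 of 13 G2/M, 8 of 15 G1/S and 4 of 6 S promoters, against 37.4% of all. Both stood together in 11 of 13 G2/M promoters, against 7.52% of all. The 250 bases before the start are shown for 3 genes with the B and C pattern: Cdk1 at chr10:69352913-69353162 on the minus strand, Cdc20 at chr4:118437344-118437593 on the minus strand and Bub1b at chr2:118597961-118598210 on the plus strand. Capitals mark CHR motifs, CCAAT boxes and, in Cdk1, 1 E2F motif (TTTCGCGC).
Cdk1: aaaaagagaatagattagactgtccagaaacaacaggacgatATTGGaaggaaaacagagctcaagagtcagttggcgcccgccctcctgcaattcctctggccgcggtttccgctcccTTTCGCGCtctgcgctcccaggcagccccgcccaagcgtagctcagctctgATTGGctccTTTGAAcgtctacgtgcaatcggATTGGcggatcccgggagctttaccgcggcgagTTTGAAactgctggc
Cdc20: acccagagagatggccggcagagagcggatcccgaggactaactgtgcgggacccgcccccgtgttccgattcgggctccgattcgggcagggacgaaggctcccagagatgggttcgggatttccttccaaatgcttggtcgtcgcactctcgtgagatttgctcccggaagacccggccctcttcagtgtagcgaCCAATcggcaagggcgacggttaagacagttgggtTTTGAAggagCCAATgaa
Bub1b: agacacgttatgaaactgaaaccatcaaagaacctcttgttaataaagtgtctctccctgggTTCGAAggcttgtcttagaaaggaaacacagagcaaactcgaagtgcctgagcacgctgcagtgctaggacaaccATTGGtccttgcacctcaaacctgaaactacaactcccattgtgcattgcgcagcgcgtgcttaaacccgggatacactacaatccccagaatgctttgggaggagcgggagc
In Cdk1 and Cdc20 a CHR motif lies near the end of the stretch, close to the start. The CCAAT boxes of Cdk1 lie upstream of that motif, and Cdc20 has a CCAAT box on each side of it. In Bub1b the CHR motif shown lies farther out, and the full window holds another after the start. Birc5, with the same array pattern, had none of the 3 motifs in this window, and Top2a, with another pattern, had 4 CHR motifs and 6 CCAAT boxes. Aurka, with the B and C pattern, had both a CHR motif and a CCAAT box, and so did Plk1, without that pattern. A link between the motifs and the array pattern was not tested.

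Other genes of the same processes were looked up from 4 lists, 124 genes in all, of which 79 were tested and 30 were never above background. None was called in either direction with limma, 33 were higher and 46 lower, and the median difference was -0.09. The groups did not overlap for 3 that were higher and 5 that were lower, a share near the 5.64% and 5.01% of all genes, and 2 of these 8, Cdk7 and Gins3, were above background in 1 group only. Of 16 other genes of origin licensing and firing, 13 were tested (8 higher, 5 lower, median 0.06). Gins1 and Orc4, subunits of the GINS and origin recognition complexes, differed by 0.51 and 0.50, and Dbf4, the activator of the kinase Cdc7, by 0.28. Gins3 gave 5.42, 5.16 and 5.33 in Control and 4.69, 4.82 and 4.72 in CKO. It was above background on the 3 Control arrays only, close to the limit, so it could pass the filter only by being higher there. Orc2 and Orc6 differed by -0.36 and -0.19. The list's median was thus near that of all genes, while that of the MCM subunits was 0.47.

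Of 28 genes of the fork and of nucleotide supply, 21 were tested (11 higher, 10 lower, median 0.07). The polymerase subunit Pold2, the flap nuclease Fen1 and the chromatin assembly subunit Chaf1a differed by 0.44, 0.35 and 0.31, and Lig1, Rfc4 and Dnmt1 by -0.29, -0.24 and -0.23. Of 31 kinases, phosphatases and transcription factors of the cycle, 20 were tested (7 higher, 13 lower, median -0.14). Groups did not overlap for E2f4 at 0.66, nor for the checkpoint kinase Chek2 at -0.68, Mycl at -0.50 and E2f5 at -0.40. Cdk7, the CDK-activating kinase, gave 4.84, 4.95 and 4.64 in Control and 5.25, 5.30 and 5.15 in CKO, and was above background on the 3 CKO arrays only, so it too could pass the filter only through the group where it was higher. Cdc25a, the phosphatase that activates Cdk2, differed by 0.34.

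Of 49 other genes of the spindle, kinetochore, chromosomes and cytokinesis, 25 were tested (7 higher, 18 lower, median -0.23). Cdca3, which takes part in mitotic entry, gave 6.72, 7.70 and 8.17 in Control and 6.68, 6.23 and 6.69 in CKO, a difference of -1.0 (SE 0.38). The groups did not overlap, though A lay only just above the CKO arrays. Nusap1, a microtubule-binding protein of the spindle, gave 4.66, 6.46 and 6.85 in Control and 4.90, 4.94 and 5.10 in CKO, a difference of -1.01 (SE 0.55). Spc24 of the kinetochore differed by -0.37, while Kif23 (without overlap), Incenp and Bub3 differed by 0.43, 0.41 and 0.17. The 25 genes deviated by -0.38, 0.22 and 0.51 on A, B and C and by -0.03, -0.24 and -0.08 on D, E and F. B and C lay above the other arrays in 10 of 25, against 8.18% of all genes. The array pattern of the G2/M genes was thus present in part of this list, over the same samples. Its spread differed less between the groups than that of the G2/M genes. The Control SD was above the CKO SD in 14 of 25, with medians of 0.33 and 0.28. Over all genes it was above in 33.6%, with medians of 0.22 and 0.31.

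**Figure D5:**
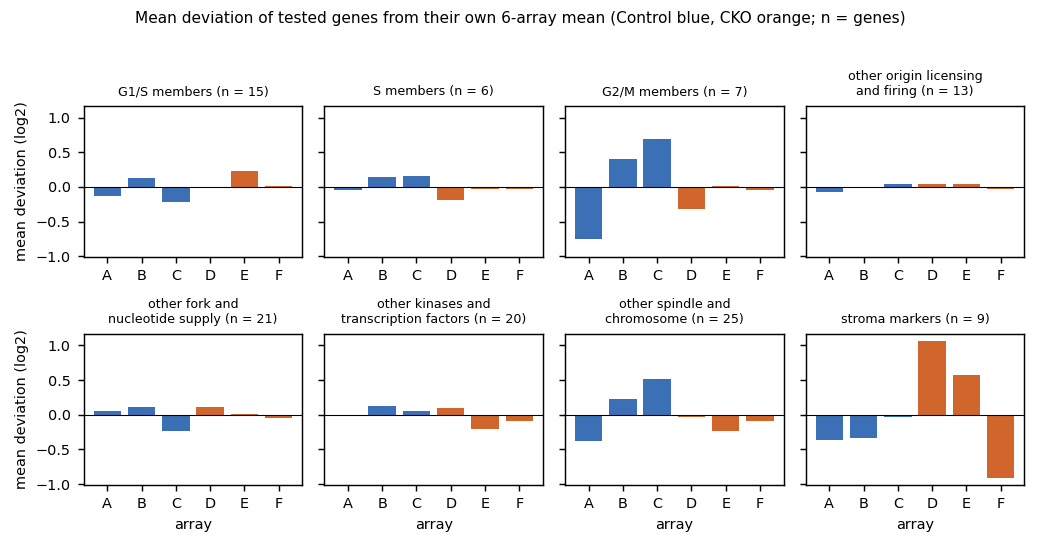
Mean deviation of the tested genes of a list from their own average over 6 arrays, in log2 units, for the 3 phases, the 4 further cell cycle lists and the stroma markers. Blue bars are Control, orange bars CKO, and n is the number of genes. The G2/M genes and the further spindle genes are low on array A and high on B and C, while stroma markers are highest on D (1.06) and lowest on F (-0.91).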

How the data were processed

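RNA of 3 Control and 3 CKO samples was measured on Illumina bead arrays. Per the file headers, each scanner table gives a probe's mean bead intensity, its detection p-value and its count of beads (median 39 to 42). Judged by their values, the deposited intensities are linear, with no background subtracted and no scaling between arrays. The authors' deposited table holds intensity values that, set against the raw ones, are linear, background-subtracted and quantile-normalised (median 6.4 per array). Their software is not given in sources used here.

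From the raw intensities, normexp with negative controls inferred from detection p-values, an offset of 16, quantile normalisation and log2 were computed with limma 3.58.1 in R 4.3.3. The offset makes differences of dim genes smaller. Probes above background (detection p-value under 0.05) on at least 3 of 6 arrays were kept, and the brightest stood for its gene. Of the probes 29370 were named by RefSeq accession, 3686 by symbol and 3267 by synonym (table of GRCm38.p6), and 8958 kept the file's name. Cdk1 is listed as Cdc2a, and 7 probes of Nol3 that carry MYC as a synonym were left out. The 2 groups were compared in limma (lmFit, then eBayes; two-sided tests), p-values were adjusted over 11940 genes by the Benjamini-Hochberg method, and the threshold was 0.05. The limma fit and the adjustment of p-values, but not the steps before them, were tested on simulated data. Genes and lists were chosen with earlier results of these data known. All 42 genes are named, and from each further list up to 3 tested genes a direction with the smallest p. Alternatives were other background corrections, normalisations, filters, probe and variance rules, array weights, the deposited values and leaving out each array. The number of arrays limits the precision.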

Additional observations from a re-analysis of the deposited data

How the results depend on the processing

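With 3 arrays a group and the spread seen here, differences as large as 1.14 on the log2 scale did not pass, and probes near background understate differences. Genes of the set called numbered 0 under every alternative and without any array, as did genes called lower. Genes called higher, 2 in the analysis reported, numbered 1 with an offset of 50 and no controls, with no background correction, with median scaling, with the deposited values and with cyclic loess, 0 with no filter and with detection under 0.01 on all arrays, 5 with array weights, and 0 to 1 when an array was left out. The G2/M median ran from -1.01 (without A) to -0.11 (without C) when an array was left out. It was 0.27 under the strict filter, which kept 2 G2/M genes. The G1/S median was -0.01 with array weights and ran from 0.0048 (without E) to 0.27 (without D) when an array was left out. The S median was 0.0043 with the mean of probes and ran from -0.11 to 0.03 when an array was left out.

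Of the 28 genes 17 kept their sign under all alternatives. With array weights E2f1 gave -0.083, Cdk2 -0.011, Cdt1 -0.31, Mcm5 -0.12, Cdc45l -0.11, Plk1 0.44 and, among the further genes, Orc6 0.12. With the mean of probes Cdk4 gave -0.019. When an array was left out, ranges that crossed 0 were -0.21 to 0.39 for Cdk4, -0.16 to 0.38 for Rb1, -0.15 to 0.25 for Cdt1, -0.11 to 0.48 for Pcna, -0.0020 to 0.13 for Cdc45l, -0.28 to 0.017 for Gins2, -1.06 to 0.29 for Cdc20 and -0.52 to 0.23 for Plk1. The smallest adjusted p of any of the 28 under any alternative was 0.298 (limma, Mcm6, array weights). Ccnd2 and Tk1, above background on 3 arrays, could be fitted without only 3 of the 6 arrays. No paired analysis was possible because the groups share no replicate labels.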
